A study of Homo sapiens with 18 samples.

Results

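The 43 genes described here are the ATF4 amino-acid response and the cytosolic tRNA synthetases that belong to it, chosen by gene symbol from a list written for this purpose. All 43 were found among the 20555 gene rows of the expression table. They comprised 5 transcription factors, 7 stress effectors and feedback genes, 9 amino acid enzymes, 3 mitochondrial one-carbon enzymes, 6 amino acid transporters and 13 genes for tRNA charging and export. They were followed in 18 subcutaneous xenografts of MSTO-211H [sh-YAP1], a human malignant pleural mesothelioma cell line that carries a doxycycline-inducible short hairpin RNA against YAP1, the transcriptional coactivator at the end of the Hippo pathway. Each tumor came from its own SCID mouse, a strain without T and B cells, and was left to grow to about 300 mm3 while the mouse drank 5% glucose. The 5 tumors labelled 0h were taken before doxycycline, and the 4 labelled 24h, 5 labelled 96h and 4 labelled 216h were taken that long after 0.5 mg/ml doxycycline had been added to the glucose water. The study's text describes a withdrawal of doxycycline before the last time point while the labels describe continuous supply, so the treatment at 216h is not settled here. All 4 groups carried the hairpin, no group received doxycycline without it, and each time point was 1 cage group, so time and cage cannot be told apart.

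ATF4 is a transcription factor whose protein is made mainly when the initiation factor eIF2 is phosphorylated, as happens on amino acid shortage, in endoplasmic reticulum stress and on other insults. It then switches on genes for making, importing and charging amino acids, together with stress regulators such as DDIT3, TRIB3 and CHAC1. Because the control is largely on translation, the ATF4 transcript alone is a poor measure of the pathway, and the transcripts of its targets are the usual readout. Tumor cells can use this programme to secure serine, cystine and asparagine.

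ATF4 and its C/EBP partners bind DNA at a composite site, the C/EBP-ATF response element, whose core was searched here as TGATGNAA (N, any base) on both strands. Promoter windows from RefSeq on GRCh38.p14, which run from 250 bases before to 50 bases after each transcription start, were found for 35 of the 43 genes. The core lay in a window of 12 of them (34.3%), against 4.46% of the 27305 genes with a window and 3.62% of all 35116 windows. Some genes had more than 1 window, and a match in any of them was counted. The members were chosen as genes of the ATF4 response, so a share above that of all genes is no result of these data. NUPR1, PSPH, PYCR1, SHMT2, ALDH1L2, SLC7A11, YARS and LARS had no window and were not searched. Of the 12 matches, 8 read TGATGCAA, 3 read TGATGAAA and 1 read TGATGTAA. They are printed to show which members hold the letters and how alike they are, with the core in capitals and 5 bases on either side, read 5′ to 3′ on the strand that carries the core:
SLC7A1 (chr13:29595669-29595686, minus strand): actgcTGATGAAAcctgg
TARS (chr5:33440962-33440979, minus strand): ccagcTGATGCAAtcgaa
CHAC1 (chr15:40953257-40953274, minus strand): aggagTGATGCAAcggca
ASNS (chr7:97872464-97872481, minus strand): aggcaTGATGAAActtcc
SLC3A2 (chr11:62881731-62881748, minus strand): ggagcTGATGTAAggagt
SLC1A5 (chr19:46784899-46784916, minus strand): gtggcTGATGCAAgctgt
AARS (chr16:70289681-70289698, plus strand): ttggcTGATGCAActgcg
GARS (chr7:30594840-30594857, minus strand): gagcaTGATGAAAtcgcc
NARS (chr18:57621810-57621827, minus strand): ctctcTGATGCAAcgccg
IARS (chr9:92293698-92293715, plus strand): ggaggTGATGCAAcgcgc
MARS (chr12:57488059-57488076, minus strand): ctcgcTGATGCAAccgga
CARS (chr11:3057413-3057430, plus strand): gaatcTGATGCAAccgcc
The first 2 genes were called in a comparison reported below. The other 10 stretches were added after the expression values had been seen. A match is a description of these letters and does not show that the factor binds there.

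**Figure D1:**
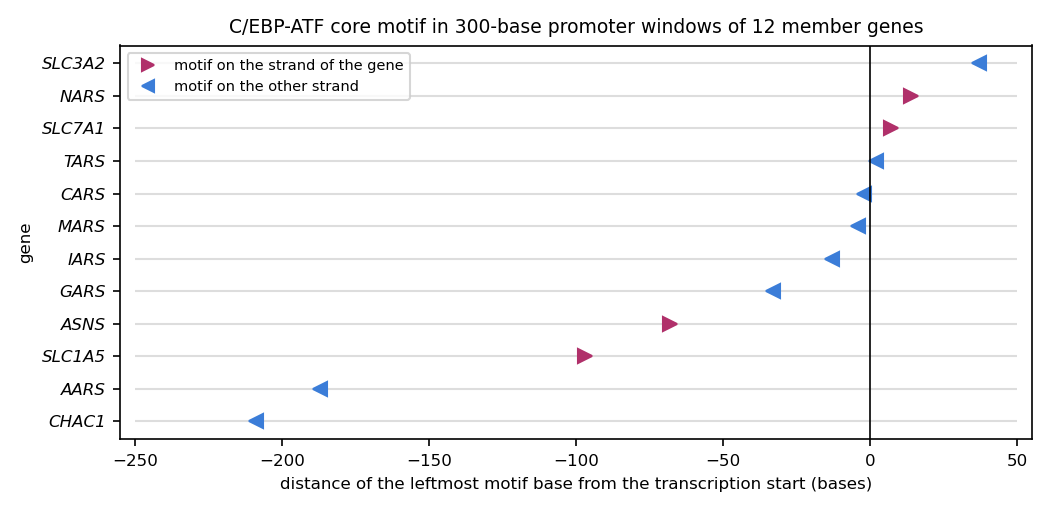
Position of the core motif in the promoter windows of 12 member genes, as the distance in bases of its leftmost base from the transcription start, with the strand given by the direction of the triangle. In 8 of the 12 genes the match lay within 40 bases of the start, and the farthest was CHAC1 at 209 bases before it.

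The targeted gene was examined first. YAP1 stood at 7.71, 10.2, 6.68, 4.82 and 6.89 FPKM (fragments scaled to transcript length and library size) in the 0h tumors, at 8.16, 4.60, 5.47 and 5.01 at 24h, at 3.72, 3.39, 6.81, 4.37 and 5.58 at 96h, and at 6.42, 5.60, 8.85 and 7.84 at 216h. The groups overlapped at every time point. Its change against 0h did not pass the test at 24h (log2 fold change -0.27 ± 0.20 SE, limma adjusted p = 0.742), 96h (-0.52 ± 0.19, adjusted p = 0.221) or 216h (0.00041 ± 0.20, adjusted p = 0.999). The FPKM values of YAP1 therefore do not separate the tumors labelled 216h from those labelled 0h. Groups are named by their labels throughout. By RT-qPCR, the paper reports a knockdown of YAP1 mRNA in these xenografts after doxycycline, still present in part at its last time point. It also reports that scores of YAP1-TEAD dependent transcription fell. An uncalled change in FPKM does not show that the knockdown was absent. The reason for the difference between the measurements was not tested.

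Before the results, 3 properties of the libraries are given because they touch them. The number of rows listed at 0 split the tumors at a gap between 5179 and 5593: all 0h tumors lay above it, all 96h tumors below it, and the 24h and 216h tumors on both sides. The 13 mitochondrial genes took 74.9% to 84.8% of the FPKM sum, with the 4 tumors labelled 216h at 74.9% to 76.0%, below every other tumor. At 216h, many markers listed for other cells were higher. The summed level of 10 fibroblast and muscle markers was 3522 to 4222 FPKM, against 1286 to 1864 at 0h, and 5 of the 9 tested were called higher. Most of that sum was COL1A1, COL1A2, COL3A1 and DCN. The muscle markers ACTA1, DES, CKM and MYH2 overlapped between 216h and 0h. Which cells carried the collagen transcripts was not tested. The sum of 12 leukocyte markers was 119 to 201 FPKM against 61.5 to 96.3, with 6 of the 10 tested higher and 1 lower. Of the 7 endothelial markers 3 were tested and 1 was higher, with a summed level of 7.52 to 11.98 FPKM against 4.17 to 6.42. The shares called higher were 55.6%, 60% and 33.3% of the tested markers of these 3 lists. Over all tested genes 19.7% were called higher at 216h and 3.6% lower. The endothelial share is 1 gene and says little beside that background. Among the 8 markers of the line, 5 were tested. KRT8 and KRT18 were called lower at 96h and at 216h (40% each time, beside 1.06% and 3.6% of all tested genes). VIM was higher at 96h (20%, beside 0.316%), and PDPN was listed at 0 in every tumor. The paper's supplement lists KRT8, and ITGB2 of the leukocyte markers, as genes whose RNA follows YAP1/TAZ-TEAD activity. KRT8 is therefore not a marker of the line alone, and what lowered it was not tested. How the study handled reads from mouse cells is not given in the sources used here. The values are bulk measurements, so fewer cells of a type and less RNA per cell cannot be told apart.

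At 0h the transcripts of the programme spanned a wide range of levels. SLC38A2, a sodium-coupled importer of neutral amino acids, stood at 440 ± 39.6 FPKM (SD, n = 5), above every other member. The synthetases followed, led by GARS for glycine (72.1 ± 11.4) and MARS for methionine (64.8 ± 15.2), and the least abundant of the 12 was YARS for tyrosine (6.43 FPKM). ATF4 itself stood at 41.7 ± 1.20 FPKM. The enzymes of serine synthesis were low, with PHGDH at 3.49 ± 1.62 and PSAT1 at 4.85 ± 0.363 FPKM. CHAC1, VLDLR, CBS and ALDH1L2 did not reach 1 FPKM in 4 tumors and were not tested, which left 39 members among 11379 tested genes.

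After 24h of doxycycline 1 of the 39 members was lower, none was higher, and 0.158% of all tested genes were called. At 96h 3 were lower and none higher, beside 1.06% of all tested genes called lower. In the tumors labelled 216h 7 members were lower and 2 higher, beside 3.6% of all tested genes called lower and 19.7% called higher. The 7 lower members were 3 amino acid transporters (SLC7A11, SLC7A5, SLC7A1), 2 amino acid enzymes (PSAT1, CTH) and 2 synthetases (WARS, TARS), and the 2 higher ones were the transcription factors NUPR1 and DDIT3. The paper's supplement lists SLC7A5, SLC7A1 and CTH as positive YAP1/TAZ-TEAD effectors, whose RNA rises and falls with that activity. SLC7A11, PSAT1, WARS and TARS are not listed there. Of the uncalled members, SLC3A2 is listed as a positive effector and CEBPB as a negative one. JDP2, a related gene described further below, is also listed as a positive effector and was called higher at 216h. The listed effectors named here therefore did not all move down. To which programme the decreases belong was not tested. The 3 comparisons share the 0h tumors. Some calls depended on the rows listed at 0: with their number as a covariate none of the 3 members passed at 96h, and with only the tumors on the 0h side of the gap, 5 at 0h and 3 at 216h, SLC7A11 and NUPR1 kept their calls at 216h and the other 7 members did not (adjusted p = 0.0704 to 0.174).

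The members also lay low as a list. Members and related genes were chosen with earlier results of these data known, so these positions are descriptions and not tests. Their median log2 fold change was -0.11 at 24h, -0.17 at 96h and -0.13 at 216h, where the medians of all tested genes were -0.04, 0.02 and 0.17. Fold changes were below 0 for 29, 31 and 25 of the 39 members, against 59.2%, 46.4% and 30.3% of all tested genes. A low position was not particular to the members. The 67 tested related genes described further below had medians of -0.03, -0.10 and 0.05, with 61.2%, 67.2% and 43.3% below 0. Among them, the other cytosolic synthetase genes, listed with the complex subunits AIMP1, AIMP2 and EEF1E1, had medians of -0.10, -0.05 and -0.08. At 96h the 5 tumors lay wholly below the 5 at 0h for 6 of the 39 members (DDIT3, PHGDH, SLC7A11, SLC7A5, SLC7A1 and WARS), against 2.59% of tested genes. Tumors differed within the groups: the number of members below their 0h mean was 30, 23, 35 and 15 in the 24h tumors, 33, 34, 28, 26 and 23 at 96h, and 24, 24, 20 and 26 at 216h.

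**Figure D2:**
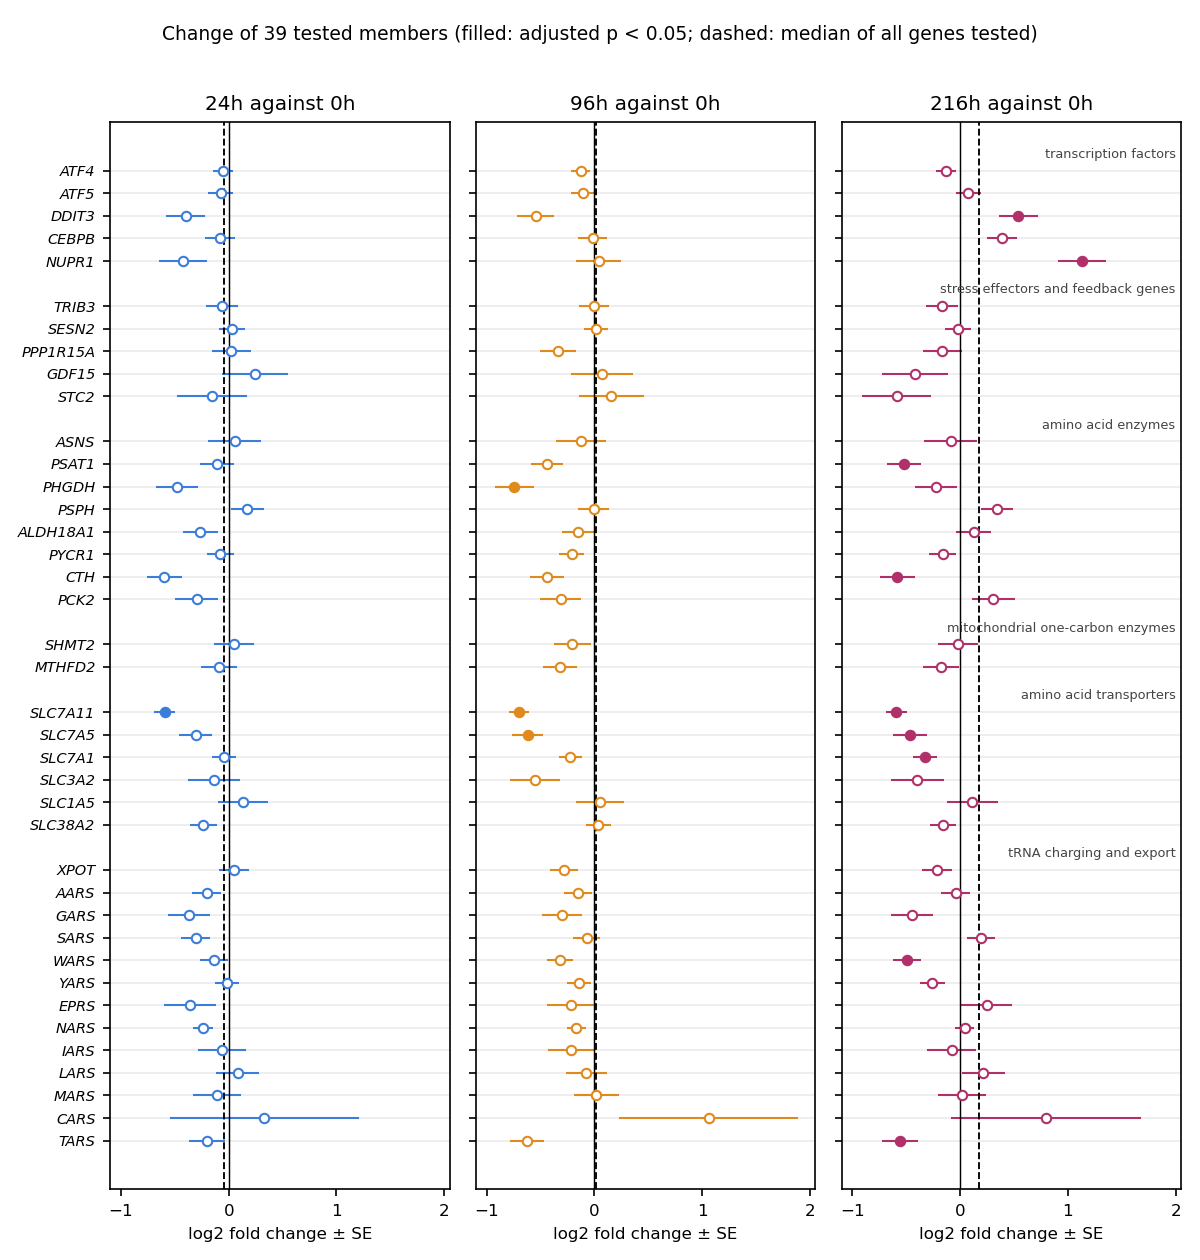
Log2 fold change (difference in mean log2(FPKM + 1), error bars SE) of the 39 tested members against 0h, grouped by role, in 3 panels for 24h, 96h and 216h. Filled points passed an adjusted p of 0.05 and the dashed line is the median of all tested genes, which lay at 0.17 at 216h, where 30 of the 39 members lay to its left.

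Among the transcription factors, the ATF4 transcript moved little. It stood at 41.1, 43.4, 41.1, 42.4 and 40.4 FPKM in the 0h tumors, at 41.2, 38.9, 35.1 and 45.7 at 24h, at 40.1, 32.6, 37.6, 39.4 and 41.0 at 96h, and at 39.1, 42.4, 34.4 and 36.1 at 216h. The later tumors overlapped those at 0h and were more spread. The change did not pass the test at 24h (-0.06 ± 0.09, adjusted p = 0.912), 96h (-0.13 ± 0.09, adjusted p = 0.576) or 216h (-0.13 ± 0.09, adjusted p = 0.315). At 216h it was called lower under each of 3 other scalings, with log2 fold changes of -0.26 to -0.36. Of the 31-base sequences of ATF4 exons, 29.7% occur in other genes, chiefly in the pseudogene ATF4P3, and its values are uncertain to that extent.

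DDIT3 (CHOP), a C/EBP-family factor that promotes cell death under prolonged stress, had its lowest mean at 96h and its highest at 216h. The 0h tumors held 10.6, 5.67, 6.76, 5.82 and 7.16 FPKM, the 24h tumors 5.23, 3.36, 5.76 and 6.47, the 96h tumors 4.53, 4.23, 5.06, 4.13 and 4.66, and those labelled 216h 11.9, 11.2, 12.9 and 7.48. All 96h tumors lay below all 0h tumors and all 216h tumors lay above all 96h tumors, while the 216h and 0h tumors overlapped. Against 0h it did not pass at 24h (-0.40 ± 0.18, adjusted p = 0.509) or 96h (-0.54 ± 0.17, adjusted p = 0.142) and was called higher at 216h (0.54 ± 0.18, adjusted p = 0.0386). Between 96h and 216h the change was 2.12-fold (1.08 ± 0.18, adjusted p = 0.00153). The call against 0h did not pass when 0h replicate 2, 3, 4 or 5 or 216h replicate 1, 2 or 3 was left out (adjusted p = 0.0601 to 0.120), nor under the 3 other scalings (adjusted p = 0.117 to 0.255). DDIT3 shares 27.2% of its exonic bases with MARS on the opposite strand. Whether counting used strand is not given in the sources used here. MARS changed by 0.02 ± 0.22 at 216h.

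NUPR1, a small stress-induced chromatin protein, was the member with the largest called change. Its values were 4.09, 4.71, 6.04, 6.81 and 6.10 FPKM at 0h, 6.58, 2.23, 4.77 and 2.79 at 24h, 5.18, 3.57, 7.52, 6.13 and 6.57 at 96h, and 13.4, 11.2, 14.1 and 14.1 at 216h. The tumors labelled 216h lay above every other tumor. The increase was 2.19-fold against 0h (1.13 ± 0.22, adjusted p = 0.00146) and 2.13-fold against 96h (1.09 ± 0.22, adjusted p = 0.00484). The call against 0h held in all 19 alternatives and that against 96h in 17 of 18, with adjusted p = 0.115 under the covariate for rows at 0. Of the 31-base exonic sequences of NUPR1, 11.9% occur in other genes. The leukocyte and fibroblast markers above were higher in the same tumors, and their part in the NUPR1 and DDIT3 values was not tested. CEBPB, a C/EBP partner of ATF4, reached 4.85, 3.02, 5.08 and 5.96 FPKM at 216h against 2.77 to 4.00 at 0h without passing (0.39 ± 0.14, adjusted p = 0.0542). ATF5, a factor translated under the same control as ATF4, stood at 20.1 ± 1.14 FPKM at 0h and 21.4 ± 3.45 at 216h and was not called at any time.

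The stress effectors and feedback genes gave no call. TRIB3, a pseudokinase that damps ATF4 activity, was near the detection filter, at 0.624, 0.998, 0.831, 0.891 and 1.02 FPKM in the 0h tumors, 0.386, 0.909, 0.850 and 1.11 at 24h, 0.775, 1.16, 0.526, 1.04 and 0.902 at 96h, and 0.647, 1.07, 0.362 and 0.665 at 216h. The groups overlapped, and the changes were -0.06 ± 0.15 (adjusted p = 0.945), -0.0010 ± 0.14 (adjusted p = 0.999) and -0.16 ± 0.15 (adjusted p = 0.458). CHAC1, which degrades glutathione, was listed at 0.371, 0.180, 0.183, 0.428 and 0.142 FPKM at 0h and lower in each 24h tumor (0.109, 0, 0.0673 and 0.108) and each 96h tumor (0.108, 0.123, 0.134, 0.108 and 0.0565), while the 216h tumors, at 0.0839, 0, 0.431 and 0.153, overlapped the 0h range. These values are too low for the test and carry no depth. SESN2, an inhibitor of mTORC1, PPP1R15A, the inducible eIF2 phosphatase subunit, and the secreted factors GDF15 and STC2 ranged in log2 fold change from -0.59 for STC2 at 216h to 0.24 for GDF15 at 24h, and none passed.

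**Figure D3:**
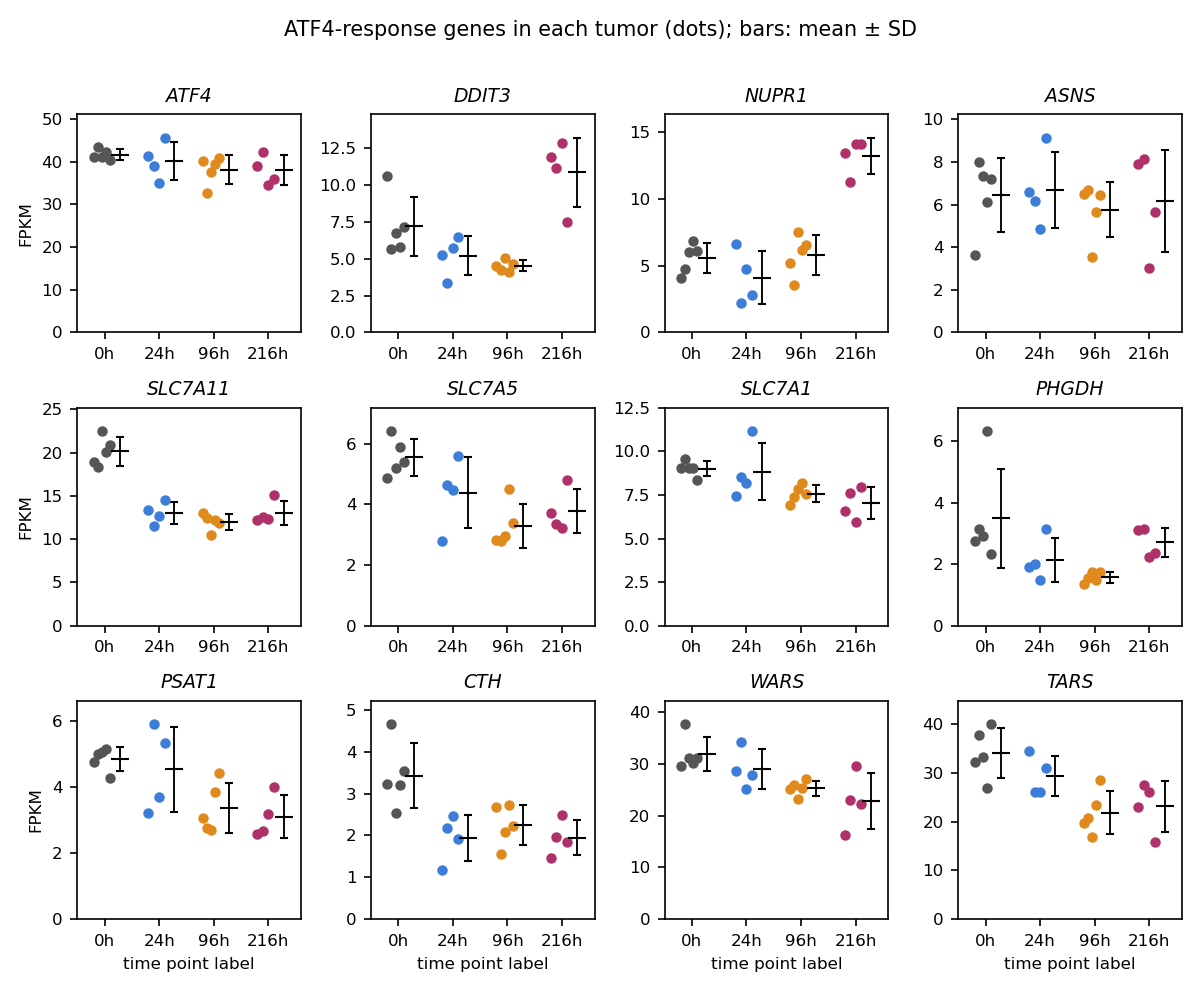
FPKM in each tumor (dots) with mean ± SD (bars) for 12 members by time point label, on linear axes that start at 0. The dots of SLC7A11 at 24h, 96h and 216h all lie below the lowest 0h tumor (18.3 FPKM), and those of NUPR1 at 216h lie above every other tumor.

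Among the amino acid transporters, SLC7A11 was lower at every time point. SLC7A11 (ENSG00000151012.13, GRCh38 chromosome 4, 138164097 to 138242349), the cystine/glutamate exchanger that supplies cystine for glutathione, stood at 18.9, 18.3, 22.5, 20.1 and 20.9 FPKM in the 0h tumors. It stood at 13.4, 11.5, 12.6 and 14.5 FPKM at 24h, at 13.0, 12.5, 10.5, 12.3 and 11.8 at 96h, and at 12.2, 12.6, 12.3 and 15.1 at 216h. No treated tumor reached the lowest 0h tumor. The mean of SLC7A11 fell by 35.4% at 24h (-0.59 ± 0.10, adjusted p = 0.0151), by 40.4% at 96h (-0.70 ± 0.09, adjusted p = 0.000357) and by 35.2% at 216h (-0.59 ± 0.10, adjusted p = 0.000416). The 24h call did not pass without 0h replicate 3 (-0.55, adjusted p = 0.0547) or 24h replicate 2 (-0.54, adjusted p = 0.0669), nor with only the 2 tumors at 24h on the 0h side of the gap in rows at 0 (-0.65, adjusted p = 0.436), and was lost in 7 of 19 alternatives in all. The 96h call was lost in 1 of 19, with the covariate for rows at 0 (-0.72, adjusted p = 0.0629), and all 0h and all 96h tumors lie on opposite sides of that gap. The 216h call held in all 19 alternatives, also with the 3 tumors on the 0h side of the gap (-0.56, adjusted p = 0.0175).

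SLC7A5 (ENSG00000103257.8, chromosome 16, 87830023 to 87869488), the light chain of the large neutral amino acid exchanger, had 4.86, 6.42, 5.21, 5.90 and 5.41 FPKM at 0h, 2.81, 4.63, 4.49 and 5.61 at 24h, 2.84, 2.79, 2.95, 4.51 and 3.4 at 96h, and 3.72, 3.35, 3.21 and 4.81 at 216h. The 96h and 216h tumors lay below the 0h tumors. It fell at 96h (-0.62 ± 0.15, adjusted p = 0.0434) and at 216h (-0.47 ± 0.16, adjusted p = 0.0385). The 96h call passed in only 1 of the 10 fits that leave out a tumor, the one without 96h replicate 4, and the other 9 gave adjusted p = 0.0596 to 0.117. The 216h call did not pass without 0h replicate 2, 4 or 5 or 216h replicate 1, 2 or 3 (adjusted p = 0.0586 to 0.108).

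SLC7A1 (ENSG00000139514.12, chromosome 13, 29509410 to 29595688), the cationic amino acid carrier, stood at 9.05, 9.59, 9.03, 9.07 and 8.34 FPKM at 0h, 7.43, 8.52, 8.19 and 11.2 at 24h, 6.91, 7.39, 7.85, 8.19 and 7.58 at 96h, and 6.58, 7.63, 5.96 and 7.96 at 216h. The 24h tumors overlapped those at 0h, with 24h replicate 4 above all of them, and the 96h and 216h tumors lay below the 0h tumors. It was called lower at 216h alone (-0.32 ± 0.11, adjusted p = 0.0423), and not without 0h replicate 1, 2, 3 or 4 or 216h replicate 1 or 3 (adjusted p = 0.0646 to 0.140). SLC3A2, the heavy chain that SLC7A11 and SLC7A5 share, had means of 16.7, 14.6, 10.5 and 11.9 FPKM in the order of time and a wide spread at 0h (7.97 to 22.1), and did not pass. The neutral amino acid carriers SLC1A5 and SLC38A2 were not called. The 6 transporters had a median log2 fold change of -0.36 at 216h, beside 0.17 over all tested genes, and 3 of the 6 were called lower.

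Among the amino acid enzymes, PHGDH was lower at 96h and PSAT1 and CTH were lower at 216h. PHGDH (ENSG00000092621.11, chromosome 1, 119711884 to 119744215), the first enzyme of serine synthesis, stood at 2.75, 3.13, 2.93, 6.33 and 2.32 FPKM at 0h, 1.91, 2.01, 1.5 and 3.16 at 24h, 1.35, 1.54, 1.76, 1.49 and 1.76 at 96h, and 3.12, 3.13, 2.23 and 2.37 at 216h. Every 96h tumor lay below every 0h tumor and below every 216h tumor. PHGDH fell at 96h (-0.74 ± 0.18, adjusted p = 0.0481) and was not called at 216h against 0h (-0.22 ± 0.19, adjusted p = 0.433) or against 96h (0.52 ± 0.19, adjusted p = 0.0877). The 96h call passed only without 0h replicate 5, and in the other 9 fits that leave out a tumor gave adjusted p = 0.0652 to 0.123. Without 0h replicate 4, the tumor at 6.33 FPKM, the change was -0.55.

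PSAT1 (ENSG00000135069.13, chromosome 9, 78297143 to 78330093), the next enzyme of serine synthesis, had 4.76, 5.00, 5.08, 5.16 and 4.26 FPKM at 0h, 3.22, 5.91, 3.70 and 5.34 at 24h, 3.05, 2.75, 2.70, 3.86 and 4.43 at 96h, and 2.59, 2.68, 3.17 and 3.99 at 216h. The 216h tumors lay below the 0h tumors. It fell at 216h (-0.52 ± 0.16, adjusted p = 0.0233), a call that did not pass without 216h replicate 1 (adjusted p = 0.0679) or 2 (adjusted p = 0.0641). Of the 31-base exonic sequences of PSAT1, 15.4% occur in other genes, with 9.96% in PSAT1P3. CTH (ENSG00000116761.11, chromosome 1, 70411218 to 70439851), which makes cysteine from cystathionine, had 3.23, 4.66, 2.53, 3.20 and 3.53 FPKM at 0h, 1.18, 2.18, 2.45 and 1.92 at 24h, 2.68, 1.56, 2.09, 2.73 and 2.23 at 96h, and 1.47, 1.97, 2.49 and 1.85 at 216h. The 24h and the 216h tumors lay below the 0h tumors, and those at 96h overlapped them. CTH fell at 216h (-0.58 ± 0.16, adjusted p = 0.0150; without 216h replicate 1, 0.0516), and the difference at 24h of like size did not pass (-0.60 ± 0.16, adjusted p = 0.207).

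ASNS, the asparagine synthetase that gives the amino acid response its classical reporter, was not called. It stood at 3.61, 8.01, 7.34, 6.11 and 7.21 FPKM at 0h, 6.6, 6.16, 4.86 and 9.15 at 24h, 6.51, 6.66, 3.56, 5.64 and 6.47 at 96h, and 7.90, 8.16, 3.04 and 5.63 at 216h. All groups overlapped, with changes of 0.05 ± 0.25 (adjusted p = 0.973), -0.13 ± 0.23 (adjusted p = 0.872) and -0.09 ± 0.25 (adjusted p = 0.832). Of its 31-base exonic sequences 42.2% occur in the overlapping annotation AC079781.5, so its reads may be split. The remaining tested enzymes, PSPH of serine synthesis, ALDH18A1 and PYCR1 of proline synthesis and mitochondrial PCK2, had log2 fold changes between -0.31 and 0.34 and were not called. CBS, the step before CTH, was listed at 0 to 0.291 FPKM. Its exons share 55.9% of their sequence with CBSL.

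The mitochondrial one-carbon enzymes SHMT2 and MTHFD2, which pass the serine carbon into folate, did not pass in any comparison. SHMT2 averaged 23.8, 25.9, 20.6 and 23.3 FPKM and MTHFD2 averaged 11.3, 10.7, 8.85 and 10.2 in the order of time. MTHFD2 overlaps SLC4A5 on the opposite strand over 27.2% of its exonic bases.

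Among the 12 synthetases and the tRNA exporter XPOT, WARS and TARS were lower. WARS (ENSG00000140105.17, chromosome 14, 100333788 to 100376805), for tryptophan, stood at 29.5, 37.7, 31.2, 30.2 and 31.1 FPKM at 0h, 28.7, 34.3, 25.1 and 27.9 at 24h, 25.1, 26.0, 23.1, 25.2 and 27.1 at 96h, and 16.3, 23.0, 29.6 and 22.2 at 216h. The 96h tumors lay below the 0h tumors, and 3 of the 4 at 216h did. WARS fell at 216h (-0.49 ± 0.13, adjusted p = 0.0114), a call kept without any 1 tumor but not with only the tumors on the 0h side of the gap in rows at 0 (-0.35, adjusted p = 0.111), and did not pass at 96h (-0.32 ± 0.12, adjusted p = 0.256). TARS (ENSG00000113407.13, chromosome 5, 33440696 to 33469539), for threonine, stood at 32.3, 37.8, 33.3, 27.0 and 40.05 FPKM at 0h, 34.5, 26.1, 26.1 and 31.1 at 24h, 19.8, 20.8, 16.8, 23.4 and 28.7 at 96h, and 23.0, 27.5, 26.2 and 15.9 at 216h. The 96h and 216h groups overlapped the 0h range by 1 tumor each. TARS fell at 216h (-0.55 ± 0.17, adjusted p = 0.0213; 0.0542 without 0h replicate 5 and 0.0888 without 216h replicate 4) and missed the threshold at 96h (-0.63 ± 0.16, adjusted p = 0.0542).

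The other 10 synthetases and XPOT were not called against 0h. CARS, for cysteine, had the largest SE of the 39 tested members, with 1.03, 256, 73.7 and 102 FPKM in the 24h tumors against 19.9 to 64.6 at 0h, and an SE of 0.83 to 0.88 on the log2 scale in the comparisons with 0h. Its mean was 37.2 FPKM at 0h, 74.8 at 96h (55.3 to 94.4) and 64.5 at 216h. The log2 fold change of 1.06 at 96h was the highest of the members there, without a call. GARS averaged 72.1 FPKM at 0h and 53.9 at 216h (-0.45 ± 0.20, adjusted p = 0.110). The 13 charging and export genes had medians of -0.14, -0.17 and -0.04 in the order of time.

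WARS is also an interferon-gamma target, so 8 genes induced by interferon-gamma were read beside it. Of the 5 tested, 1 was called at 216h, where 19.7% of all tested genes were higher: GBP2, an interferon-induced GTPase (0.51 ± 0.12, adjusted p = 0.00413). That share, 20.0%, is near the background and is no result about the list.

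Between 24h and 96h none of the 39 members was called by limma, beside 0.0439% of all tested genes, and 5 had an unadjusted p below 0.05, beside 10.2% of tested genes. Between 96h and 216h DDIT3 and NUPR1 were called higher and none lower, beside 10.3% of tested genes called higher and 0.747% lower. SLC7A11 differed little between these groups (0.11 ± 0.10, adjusted p = 0.528).

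The size of the 216h decreases depended on the scaling, and their direction did not in those tried. The median of all tested genes moved by 0.17 at 216h as deposited, by -0.03 after quantile normalization, by -0.05 after scaling to equal medians and by 0.09 when the values were rescaled without mitochondrial genes. The split of all calls changed with it, from 19.7% of genes higher and 3.6% lower to 9.11% and 8.61% after quantile normalization, 8.60% and 11.2% after median scaling, and 13.2% and 6.27% without mitochondrial genes. The members gave 2 higher and 7 lower as deposited, 1 and 10 after quantile normalization, 1 and 13 after median scaling, and 1 and 10 without mitochondrial genes. The 7 lower members were called lower under all 4. NUPR1 stayed higher under all 4 and DDIT3 only as deposited. The median of the members lay 0.27 to 0.35 below that of all genes in each.

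**Figure D4:**
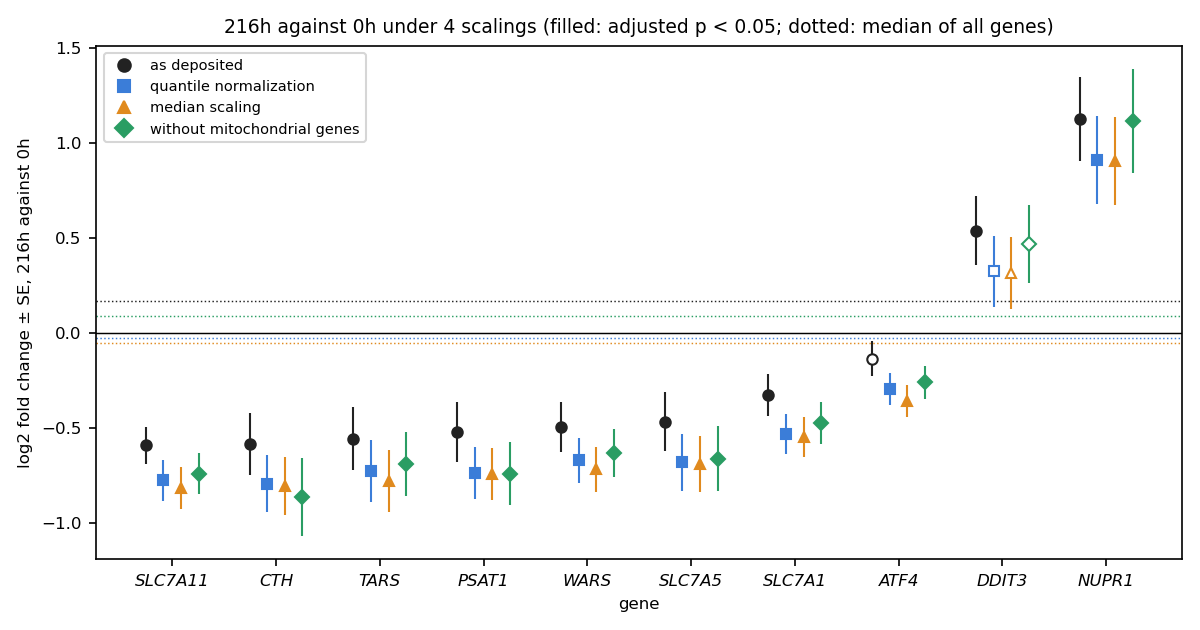
Log2 fold change ± SE of the 9 called members and ATF4 at 216h against 0h, as deposited and under 3 other scalings, with filled symbols where the adjusted p was below 0.05 and dotted lines at the median of all tested genes. SLC7A11, at -0.59 as deposited, lay between -0.74 and -0.81 under the other scalings, while DDIT3 dropped from 0.54 to between 0.32 and 0.47.

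Other genes of the pathway, taken from lists of 75 genes of which 67 were tested, gave 1 call at 24h, none at 96h by limma (8 with an unadjusted p below 0.05, or 11.9%, beside 13.1% of all tested genes) and 7 at 216h. The 7 were 6 higher, or 8.96% beside 19.7% of all tested genes, and 1 lower, or 1.49% beside 3.6%, so both shares lay below those of all genes. At 24h HERPUD1, of endoplasmic reticulum protein degradation, was lower (-0.68 ± 0.12, adjusted p = 0.0291). At 216h 2 of the 13 other ATF4-responsive genes tested were higher (15.4%, beside 19.7% of all tested genes) and 1 was lower (7.69%, beside 3.6%). The higher ones were KLHL24, an adaptor of a ubiquitin ligase (0.89 ± 0.21, adjusted p = 0.00606), and JDP2, an AP-1 family repressor (0.77 ± 0.22, adjusted p = 0.0170). The autophagosome protein MAP1LC3B was lower (-0.55 ± 0.18, adjusted p = 0.0300). Of 13 genes of the eIF2 kinases and eIF2 control, PPP1R15B, the constitutive eIF2 phosphatase subunit, was higher (0.35 ± 0.10, adjusted p = 0.0211). Of the 11 genes for other cytosolic synthetases and complex subunits, QARS for glutamine was higher (0.48 ± 0.15, adjusted p = 0.0291). None of the 16 tested mitochondrial tRNA synthetases was called (2 with an unadjusted p below 0.05, beside 36% of all tested genes), and of 9 neighbouring amino acid and folate enzymes MTR, the methionine synthase, was higher (0.26 ± 0.09, adjusted p = 0.0451). The calls of PPP1R15B, QARS and MTR were 7.69%, 9.09% and 11.1% of the tested genes of their lists, each below the 19.7% of all tested genes. With GBP2 the genes named for 216h make up the 7. KLHL24 was called in all 19 alternatives. The other calls were lost in 12 of 19 for HERPUD1, 2 of 19 for JDP2, 7 of 19 for MAP1LC3B, 7 of 18 for PPP1R15B, 11 of 19 for QARS, 15 of 18 for MTR and 3 of 18 for GBP2, and the log2 fold change of PPP1R15B was 0.13 and that of MTR 0.041 under median scaling. After median scaling the 67 genes gave 1 higher and 12 lower. Between 96h and 216h KLHL24, JDP2 and ATF3 were higher, or 4.48% of the 67 beside 10.3% of all tested genes, the last named after its values were seen.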

How the data were processed

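RNA of 18 tumors was measured by paired-end sequencing of KAPA HyperPrep libraries enriched by capture probes. The authors deposited 1 table of FPKM values per gene. The submitters' processing notes name STAR and GRCh38; the counting step, its use of strand and the handling of mouse reads are not given in the sources used here. The depth is unknown, so no counting interval was given and a 0 is a listed value. Where a symbol had 2 rows (GDF15 and MAP1LC3B), the row with the higher mean was used. Gene starts are printed 1-based.

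Values were analysed as log2(FPKM + 1) for genes that reached 1 FPKM in 4 or more tumors, in 1 fit of all 18 tumors with limma 3.58.1 (R 4.3.3; lmFit, contrasts.fit, eBayes with trend), two-sided, with Benjamini-Hochberg adjustment over the 11379 genes tested and calls at an adjusted p below 0.05. Fold changes are on the log2(FPKM + 1) scale and understate the change of low genes. In simulated data for 216h against 0h, 80.5% of 200 genes changed by 1 on the log2 scale were recovered, and 5.85% of the calls fell on unchanged genes. Most changes called here were smaller than 1. Such sizes were not simulated, so the recovery does not describe them. The simulated noise was normal and independent between genes, with equal numbers of genes changed up and down. It held no shift of the median of all genes and no split in rows at 0. The share of calls on unchanged genes therefore does not carry over to the real comparison. Tumors were grouped by the time point label. P-values measure the spread between tumors of 1 cage group per time point. The growth notes give 5 tumors at 24h; 4 were analysed here. Exons were compared through GENCODE annotation for overlap and shared 31-base sequences.

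The 43 members and the companion and marker lists were chosen with earlier results of these data known. ATF4, DDIT3, TRIB3, CHAC1, ASNS and the called members were given in full, the others by range, and companion genes where called against 0h, at most 3 per list. Alternatives covered the groups in the fit, filter, pseudocount, scaling, eBayes trend, a covariate for rows at 0 and leaving out each tumor.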

Additional observations from a re-analysis of the deposited data

Results flagged for a closer look

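In each group of 4 or 5 tumors, the highest and lowest value of each of the 43 members and YAP1 was compared with its nearest neighbour by Dixon's criterion. Of 176 groups with any spread, 11 held a tumor that stood apart, where chance gives about 1 in 20, or 8.8. High values were those of ATF5 in 96h replicate 3 (20.4 FPKM), VLDLR in 24h replicate 4 (0.792), PHGDH in 0h replicate 4 (6.33), CBS in 24h replicate 4 (0.104), PCK2 in 24h replicate 2 (1.54), MTHFD2 in 216h replicate 4 (15.5), ALDH1L2 in 0h replicate 4 (0.382), SLC7A11 in 216h replicate 4 (15.1) and WARS in 0h replicate 2 (37.7). Low values were those of XPOT in 96h replicate 1 (17.3) and IARS in 216h replicate 4 (22.7). The tumor labelled 216h replicate 4 held 3 of the 11.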

How the results depend on the processing

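No paired analysis was possible because the labels give no replicate number that joins tumors of different time points. Across 37 gene results and 693 alternative fits, 541 kept direction and side of the threshold, 128 lost the call, 3 gained one and 21 changed sign, all of the last for changes that did not pass the test.

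Of the member calls, the 1 at 24h became 0 with only the 2 groups compared, after quantile normalization or median scaling, with a covariate for rows at 0, and in tumors on the same side of the gap in rows at 0 (a subset chosen after seeing the data). The 3 at 96h became 1 with no filter and 0 with the covariate; since all 0h and all 96h tumors lie on opposite sides of the gap, no subset could be compared. The 9 at 216h became 14 with median scaling and 2 on the same side of the gap, SLC7A11 and NUPR1, and the 2 between 96h and 216h became 1, DDIT3, with the covariate. The fits with fewer tumors have fewer degrees of freedom, and otherwise the cause was not tested. Leaving out 1 tumor at a time gave 0 to 1 calls at 24h, 1 to 2 at 96h and 4 to 8 at 216h.

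Of the companion calls, the 1 at 24h became 0 with only 2 groups, no filter, no eBayes trend, the covariate or the same side of the gap, and 0 to 1 with 1 tumor left out. The 0 at 96h became 1 with only 2 groups, no filter, quantile normalization or rescaling without mitochondrial genes, and 0 to 1 with 1 tumor left out. The 7 at 216h became 3 with only 2 groups, 4 with a filter of 5 FPKM or a minimum change of 0.5, 13 with median scaling, 2 on the same side of the gap, and 4 to 7 with 1 tumor left out. The 3 between 96h and 216h became 1 with no filter, quantile normalization or median scaling, 0 without mitochondrial genes or with the covariate, and 0 to 2 with 1 tumor left out.

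Signs changed for TRIB3 at 96h without mitochondrial genes (0.029), ASNS at 24h with the covariate (-0.073) and YAP1 at 216h with quantile normalization (-0.21), median scaling (-0.22) and no mitochondrial genes (-0.11). With 1 tumor left out, log2 fold changes also crossed 0 for ATF4 at 24h (-0.12 to 0.0065), TRIB3 at 24h (-0.14 to 0.065) and 96h (-0.053 to 0.072), ASNS at 24h (-0.11 to 0.18), 96h (-0.29 to 0.0093) and 216h (-0.25 to 0.17), and YAP1 at 216h (-0.12 to 0.12). Depth is unknown, so members below 1 FPKM carry no precision.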
